A study of Mus musculus with 11 samples.

Results

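The 30 genes described here encode most enzymes of cholesterol synthesis, the main enzymes of fatty acid synthesis and desaturation, and the proteins that regulate them. They were taken by symbol from a list: Acat2, Hmgcs1, Mvk, Pmvk, Mvd, Idi1 and Fdps of the mevalonate steps, Fdft1, Sqle and Lss between squalene and lanosterol, Cyp51, Tm7sf2, Msmo1, Nsdhl, Hsd17b7, Ebp, Sc5d and Dhcr7 between lanosterol and cholesterol, the regulators and transport genes Insig1, Srebf1, Srebf2, Scap and Stard4, and the fatty acid genes Fads1, Fads2, Scd1, Scd2, Fasn, Acaca and Elovl6. All 30 were found among the 55228 symbols of the count table, and all 30 were among the 16420 genes with enough counts to be tested. The cells were mouse embryonic stem cells of the line EN52.9.1, derived from the early embryo and kept dividing in culture, and their RNA was sequenced. Every group carries the CTCF-AID allele, in which CTCF, the zinc finger factor that anchors chromatin loops, is fused to a degron that auxin targets for destruction. The EV untreated group (3 libraries) had no auxin, and its genotype label reads wild-type and untreated. EV auxin (2 libraries) received 500 µM of the auxin analog indole-3-acetic acid. In FL auxin (3 libraries) and H373R auxin (3 libraries), cells given the same auxin had FL CTCF or the mutant H373R CTCF reintroduced. The sample titles call the mutant group ZF4. The labels do not say what EV stands for, how long auxin was applied or how CTCF was reintroduced. Nothing says that the libraries of a group came from separate cultures, so the p-values measure only the spread between these samples, which may be technical.

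Cholesterol is built from acetyl-CoA through mevalonate, the isoprenoid units and squalene, which is closed into lanosterol and then trimmed and reduced to cholesterol. Fatty acids are built from the same precursor by acetyl-CoA carboxylase and fatty acid synthase, and are then lengthened by elongases and given double bonds by desaturases. Both pathways are driven by the SREBP transcription factors: when membrane sterol is low, SCAP carries the SREBP precursors from the endoplasmic reticulum to the Golgi, where they are cut and released to the nucleus, and when sterol is high INSIG proteins hold them back. Proliferating cells such as embryonic stem cells need both products for new membranes.

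The libraries held 13465241 to 29902246 counts each. Ctcf transcript was at a CPM (count scaled to library size) of 294 to 344 in EV untreated, 359 to 364 in EV auxin, 328 to 349.6 in FL auxin and 306 to 330.45 in H373R auxin. Every FL and H373R library lay below both EV auxin libraries, so no raised Ctcf transcript was seen in the groups labelled as having CTCF reintroduced. Auxin acts on the protein, and whether reads of the reintroduced CTCF count toward Ctcf is not given in the sources used here, so these values do not check the labels. Summed TPM (a level also scaled by gene length) of 6 embryonic stem cell markers was 6172 to 6485 in EV untreated, 6148 to 6263 in EV auxin, 5528 to 5764 in FL auxin and 5562 to 5605 in H373R auxin. The 6 did not move together. Against EV auxin, 4 were called in FL auxin (66.7%, beside 24.5% of all tested genes), 2 higher and 2 lower. In H373R auxin 3 were called (50%, beside 21.7%), 1 higher and 2 lower. Of 11 primitive and visceral endoderm markers, 10 were called higher than in EV auxin in FL auxin and 10 in H373R auxin (90.9% each). Of all 16420 tested genes, 1816 (11.1%) were called higher in FL auxin and 1647 in H373R auxin. The summed TPM of these 11 markers was 20.5 to 21.2 in EV untreated and 22.8 to 23.1 in EV auxin. It was 68.4 to 73.9 in FL auxin and 45.9 to 51.2 in H373R auxin. No more than 1 of the 11 was at 0 counts in any library. Summed TPM of 6 fibroblast markers was 48.0 to 56.0 over both EV groups and 62.9 to 71.8 over FL auxin and H373R auxin, and 1 to 3 of the 6 were at 0 counts in every library. In these bulk libraries fewer cells of a type and less RNA per cell cannot be told apart. EV untreated replicate 1 stood apart most: its deviation from its group followed the GC content of genes, with r = 0.559 across 16242 genes, which are not independent replicates, and counts of calls are therefore also given without it. The other EV untreated libraries, measured from the same group mean, had r of -0.376 and -0.318. A weaker trend was seen in FL auxin, with r of 0.325, -0.225 and -0.0854 for replicates 1, 2 and 3.

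Per length, the most abundant of the 30 transcripts in untreated cells was Scd2, a stearoyl-CoA desaturase that places the double bond of oleate, at 624 ± 30.4 TPM (SD, n = 3). Hmgcs1, which makes HMG-CoA, followed at 328 ± 27.0 TPM, and Fasn, the fatty acid synthase, at 289 ± 20.8 TPM. Hmgcs1 and Fasn were apart by less than the sum of their SDs, as were Fdft1 (169 ± 7.85 TPM) and Mvd (161 ± 15.5 TPM). The lowest was Tm7sf2, a sterol reductase, at 5.96 ± 0.205 TPM, below Idi1, an isomerase of isoprenoid units, at 17.2 ± 2.33 TPM. The 30 genes together reached a summed TPM of 3472 to 3577 in EV untreated, 2982 to 3144 in EV auxin, 3143 to 3221 in FL auxin and 3166 to 3197 in H373R auxin. No library with auxin reached the lowest untreated one on this sum, to which Scd2 contributes most.

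**Figure D1:**
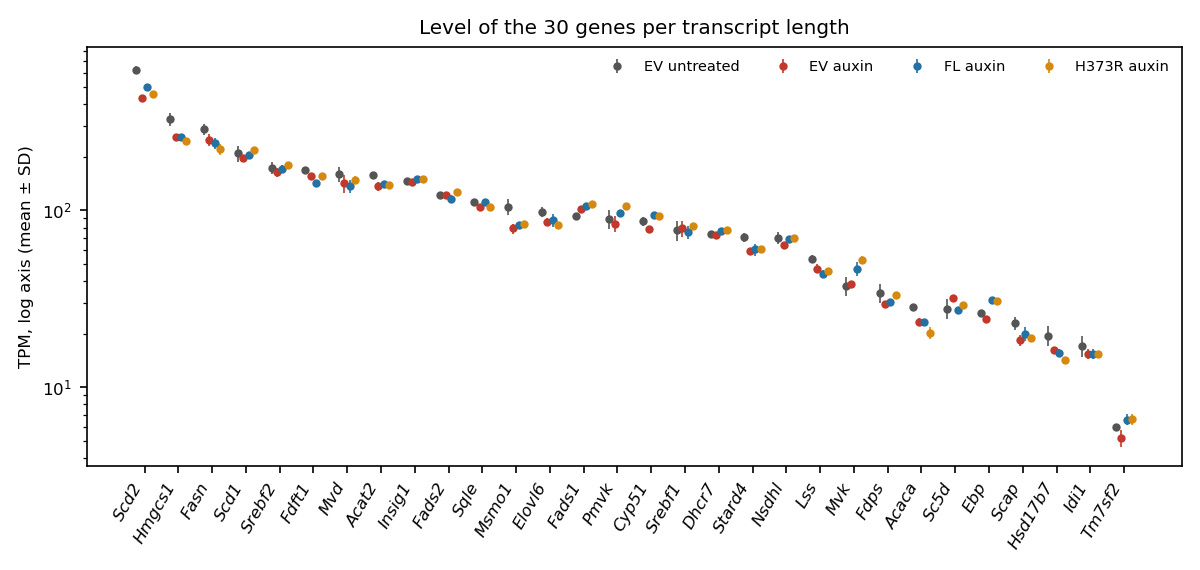
TPM on a log axis (mean ± SD over 2 or 3 libraries) of the 30 genes in the 4 groups (colours), in order of the untreated level. Scd2 is the highest and Tm7sf2 the lowest of the 30 in every group, and most differences between groups are small beside the differences between genes.

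After auxin, 11 of the 30 genes were called lower in EV auxin than in EV untreated and none higher, at an adjusted p under 0.05 in edgeR's quasi-likelihood test over all tested genes. Among all tested genes 20.7% were called (9.40% lower, 11.3% higher), against 36.7% of the 30. At an unadjusted p under 0.05, 17 of the 30 were lower and none higher. The share of all tested genes at that threshold is not given here, so this count has no background beside it. The median log2 fold change of the 30 was -0.16, beside 0.0087 over all tested genes, and 26 of the 30 values were below 0. The changes were small: the largest was a fall of 31.7% for Scd2. Those called were Acat2, Hmgcs1, Lss, Msmo1, Hsd17b7, Scap, Stard4, Scd2, Fasn, Acaca and Elovl6, so each segment of the pathways had at least 1. The count was 17, all lower, without EV untreated replicate 1, with 33.3% of all genes called, and fell to 4 (13.3% of the 30, beside 2036 of all 16970 genes tested, a like share) without EV auxin replicate 1 and to 7 (23.3%, beside 9.32%) without EV auxin replicate 2, fits in which the lone EV auxin library is assumed to vary like the other groups. Once dependence on GC content and exon length was regressed out, 21 were called, 20 lower and 1 higher, against 30.7% of all genes.

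Against EV auxin, 8 of the 30 genes were called higher in FL auxin and none lower, and 6 were called higher in H373R auxin and none lower. In this fit the shares are near the background: 26.7% of the 30 beside 24.5% of all tested genes called in FL auxin (11.1% higher, 13.4% lower), and 20% of the 30 beside 21.7% in H373R auxin (1647 genes higher and 1923, or 11.7%, lower). The median of the 30 was 0.12 in FL auxin, beside -0.014 over all genes, and 0.096 in H373R auxin, beside 3.15e-04. Sterol genes made up 7 of the 8 in FL auxin (Mvk, Pmvk, Sqle, Cyp51, Tm7sf2, Ebp and Dhcr7, with Scd2 as the eighth) and all 6 in H373R auxin (Mvk, Pmvk, Cyp51, Tm7sf2, Ebp and Dhcr7). Sterol synthesis genes are also most of the list, with 7, 3 and 8 genes in its sterol segments beside 7 fatty acid genes. Both comparisons share the 2 EV auxin libraries, as does the comparison after auxin. Without EV auxin replicate 1 the counts were 4 and 4, beside 12.9% and 8.85% of all genes, and without EV auxin replicate 2 they were 3 and 2, beside 11.2% and 9.13%. Without EV untreated replicate 1, which enters only through the shared spread and the scaling, they were 17 (16 higher) and 13 (12 higher), beside 35.5% and 33.0% of all genes. With GC and length trends removed they were 20 (19 higher) and 13 (12 higher), beside 35.3% and 30.5% of all genes, so the nearness of these shares to the background depends on the setting. Leaving out FL auxin replicate 1 or 2 brought the FL count to 3 or 5, beside 18.2% and 19.9% of all genes. The summed endoderm, fibroblast and stem cell marker levels given above moved with both groups, though single stem cell markers were called in both directions. The part of these markers in the results was not tested.

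Set against EV untreated, 14 of the 30 were called in FL auxin (4 higher, 10 lower) and 15 in H373R auxin (4 higher, 11 lower). Over all tested genes 36.9% were called in the first of these comparisons (17.7% higher, 19.2% lower) and 44.4% in the second (22.3% higher, 22.1% lower), against 46.7% and 50% of the 30. The 4 higher in FL auxin were Mvk, Cyp51, Ebp and Fads1, and the 4 higher in H373R auxin were Mvk, Pmvk, Ebp and Fads1, where the Pmvk value of 0.25 was 0.038 with GC and length trends removed and no longer passed. That Pmvk call was lost under 6 of the 21 alternatives, among them without EV untreated replicate 2 or 3 or H373R auxin replicate 3, and the Cyp51 call in FL auxin (0.15, adjusted p = 0.0315) under 7 (adjusted p up to 0.163), among them all 3 limma fits and those without EV untreated replicate 1 or FL auxin replicate 2 or 3. The Mvk, Ebp and Fads1 calls in both groups held under all 21. Of the 30 genes, 10 were called in none of the 6 comparisons: Mvd, Idi1, Fdps, Nsdhl, Sc5d, Insig1, Srebf1, Srebf2, Fads2 and Scd1. The share of all tested genes called in none of the 6 is not given here, so these 10 have no background beside them. The plot of fold changes shows these small shifts gene by gene.

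**Figure D2:**
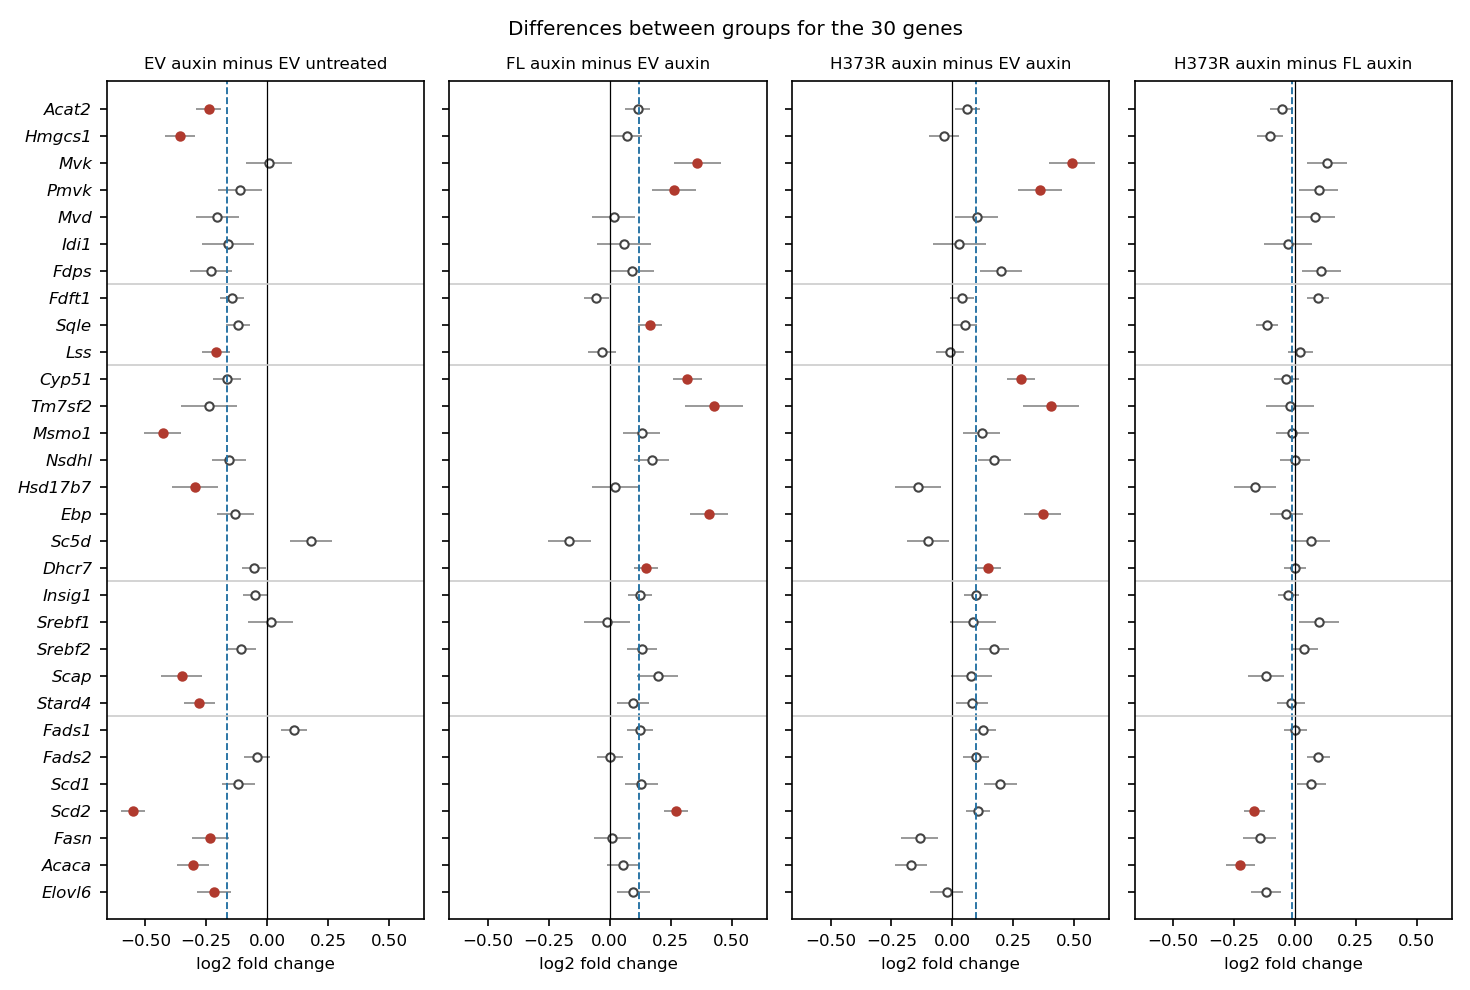
Log2 fold change with its standard error (horizontal lines) of the 30 genes in 4 comparisons, with filled points for genes past an adjusted p of 0.05, open points for the others and a dashed line at the median of the 30. The 11 filled points after auxin lie left of 0, and the 8 and 6 filled points of the 2 comparisons with EV auxin lie right of it.

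In the mevalonate steps, 2 of 7 genes (28.6%) fell after auxin, beside 20.7% of all tested genes called (9.40% lower). Another 2 (28.6%) were called higher than EV auxin in each group with reintroduced CTCF. Against EV auxin, 24.5% of all tested genes were called in FL auxin (11.1% higher) and 21.7% in H373R auxin (1647 of 16420 higher). Hmgcs1, the synthase that commits acetyl units to HMG-CoA, read 365, 431 and 408 CPM in EV untreated, 315 and 311 in EV auxin, 315, 341 and 329 in FL auxin and 303, 308 and 306 in H373R auxin. All 8 auxin libraries lay below the lowest untreated one, and the 3 auxin groups lay close together. Its log2 fold change was -0.36 ± 0.062 (SE), adjusted p = 6.83e-04 after auxin, -0.29 ± 0.055 (SE), adjusted p = 8.13e-04 in FL auxin against EV untreated, and -0.39 ± 0.055 (SE), adjusted p = 4.00e-05 in H373R auxin against EV untreated. Neither group with reintroduced CTCF was called against EV auxin, with log2 fold changes of 0.069 (95% interval -0.063 to 0.20) for FL and -0.034 (-0.16 to 0.10) for H373R. Acat2, the cytosolic thiolase that joins acetyl-CoA units, fell by 15.4% after auxin (adjusted p = 0.00346; 0.0648 without EV auxin replicate 1).

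Mvk, mevalonate kinase, read 30.3, 24.1 and 25.3 CPM in EV untreated, 26.5 and 27.1 in EV auxin, 36.5, 31.1 and 35.2 in FL auxin and 38.5, 35.8 and 38.6 in H373R auxin. EV untreated and EV auxin overlapped, while every FL and H373R library was above every library of both EV groups. Against EV auxin the log2 fold change of Mvk was 0.36 ± 0.096 (SE), adjusted p = 0.0135 in FL auxin and 0.49 ± 0.095 (SE), adjusted p = 0.00206 in H373R auxin. Against EV untreated it was 0.37 ± 0.084 (SE), adjusted p = 0.00317 and 0.50 ± 0.082 (SE), adjusted p = 1.71e-04, and both of these calls held under all 21 alternatives run. The FL call against EV auxin did not hold without EV auxin replicate 1 or 2 or FL auxin replicate 1, with adjusted p = 0.0929, 0.0800 and 0.0533 for Mvk. Pmvk, the next kinase of the pathway, read 46.4, 36.7 and 39.0 CPM in EV untreated, 35.4 and 40.1 in EV auxin, 47.7, 44.7 and 43.8 in FL auxin and 47.1, 48.9 and 49.7 in H373R auxin. Its H373R libraries were all above the EV libraries, but EV untreated replicate 1 lay within the FL range. Pmvk differed from EV auxin by 0.26 ± 0.091 (SE), adjusted p = 0.047 in FL auxin and 0.36 ± 0.090 (SE), adjusted p = 0.01 in H373R auxin. The FL call of Pmvk was lost when any EV auxin, FL auxin or H373R auxin library was left out. It was also lost with a block for the replicate number and in all 3 limma fits. The H373R call of Pmvk was lost without EV auxin replicate 1 and in limma without a TPM filter.

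Promoter sequences from RefSeq (build GRCm38.p6, 250 bases before to 50 after the start of a gene) were found for 23 of the 30 genes, 4 of which have more than 1 window, and a gene was counted as matching when any of its windows did. Stretches are shown for 5 of the 23, chosen as examples after their values were seen: Hmgcs1, the one match to the sterol regulatory element, Mvk, Pmvk and Ebp among the genes called higher than EV auxin, and Scap, one of the matches to the CTCF motif. The sterol regulatory element, at which SREBP binds, was searched as TCACNCCAC on both strands and matched 1 of the 23, Hmgcs1, against 1.5% of the 11769 tested genes with a window (1.24% of all 32851 windows, each counted on its own). The CCAAT box, the site of the factor NF-Y, which acts with SREBP, was searched as CCAAT on both strands and matched 18 of the 23 (78.3%), against 43% of tested genes with a window (37.4% of all windows). It was in all 6 of the genes called higher in FL auxin that have a window (Mvk, Pmvk, Cyp51, Tm7sf2, Ebp and Dhcr7) and in 5 of 9 of those lower after auxin. The GC box, GGGCGG, matched 19 of the 23 (82.6%, beside 67.4% of tested genes), with 5 of these 6 and 6 of these 9. The E-box, CACGTG, matched 5 of the 23 (21.7%, beside 11.6%), with 1 of the 6 and 2 of the 9. A match describes letters in a window and is not a measured binding site. The stretches below run 5′ to 3′ on the strand of the gene and end just before or shortly before its start. Capitals mark TCACNCCAC in Hmgcs1, at chr13:119690191-119690340 on the plus strand, and CCAAT or its reverse complement ATTGG in the kinases Mvk, at chr5:114444119-114444268 on the plus strand, and Pmvk, at chr3:89454391-89454540 on the plus strand.
Hmgcs1: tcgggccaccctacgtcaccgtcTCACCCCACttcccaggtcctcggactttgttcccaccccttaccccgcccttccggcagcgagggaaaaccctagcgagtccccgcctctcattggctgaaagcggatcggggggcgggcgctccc
Mvk: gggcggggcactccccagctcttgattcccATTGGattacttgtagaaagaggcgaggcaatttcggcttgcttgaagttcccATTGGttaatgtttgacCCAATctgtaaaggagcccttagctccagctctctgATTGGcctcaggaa
Pmvk: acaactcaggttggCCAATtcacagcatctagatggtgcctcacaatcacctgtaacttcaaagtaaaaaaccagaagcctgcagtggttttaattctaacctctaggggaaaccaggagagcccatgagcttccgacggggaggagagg
The Mvk stretch holds 4 such boxes and the Pmvk stretch 1.

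Between squalene and lanosterol, 1 of 3 genes (33.3%) fell after auxin, beside 20.7% of all tested genes called (9.40% lower). Lss, the cyclase that forms lanosterol, fell by 13.6% (log2 fold change -0.21 ± 0.057 (SE), adjusted p = 0.0163), a call lost without EV auxin replicate 1, where Lss had adjusted p = 0.171, and with limma on TPM. It was also lower than EV untreated in FL auxin (-0.24, adjusted p = 0.00182) and H373R auxin (-0.22, adjusted p = 0.00254), but with GC and length trends removed these values of Lss were -0.10 and -0.050 and neither passed. Sqle, squalene epoxidase, a rate-limiting step, was called in FL auxin against EV auxin (0.16 ± 0.049 (SE), adjusted p = 0.024). This call was lost without either EV auxin library or FL auxin replicate 1 or 2, without the filter on low counts and in all 3 limma fits. Fdft1, squalene synthase, passed only in FL auxin against EV untreated (-0.20 ± 0.045 (SE), adjusted p = 0.00296). Of its exon bases 18.3% overlap the opposite-strand gene Ctsb, and the strand setting of the counting is not given in the sources used here.

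From lanosterol to cholesterol, 2 of 8 genes (25%) fell after auxin, beside 20.7% of all tested genes called (9.40% lower). Higher than EV auxin were 4 (50%) in FL auxin and 4 (50%) in H373R auxin. The shares of all tested genes called in these comparisons were 24.5% (11.1% higher) and 21.7% (1647 of 16420 higher). Msmo1, the oxidase that removes methyl groups, read 151, 181 and 181 CPM in EV untreated, 135 and 119.6 in EV auxin, 133, 143 and 141 in FL auxin and 134, 141 and 139 in H373R auxin. Every auxin library lay below the lowest untreated one, and EV auxin replicate 2 was the lowest of all. The log2 fold change of Msmo1 was -0.43 ± 0.076 (SE), adjusted p = 8.67e-04 after auxin, -0.30 ± 0.068 (SE), adjusted p = 0.00291 in FL auxin against EV untreated and -0.31 ± 0.067 (SE), adjusted p = 0.0016 in H373R auxin against EV untreated, and these 3 calls held under all 21 alternatives. Hsd17b7, a reductase of the same demethylation sequence, was -0.30 (adjusted p = 0.0359) after auxin and -0.44 (adjusted p = 5.58e-04) in H373R auxin against EV untreated. Its call after auxin was lost when any of 4 libraries was left out. That call was also lost with only the libraries compared, with a block for the replicate number and in all 3 limma fits.

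Ebp, the isomerase that shifts the sterol ring double bond, read 15.8, 16.3 and 16.4 CPM in EV untreated, 15.0 and 14.6 in EV auxin, 19.5, 20.7 and 18.7 in FL auxin and 19.2, 18.5 and 19.5 in H373R auxin. FL and H373R libraries lay above every EV library. Against EV auxin the log2 fold change of Ebp was 0.41 ± 0.078 (SE), adjusted p = 0.00158 in FL auxin and 0.37 ± 0.076 (SE), adjusted p = 0.00315 in H373R auxin, and against EV untreated it was 0.28 ± 0.067 (SE), adjusted p = 0.00468 and 0.24 ± 0.065 (SE), adjusted p = 0.00747. Without EV auxin replicate 2 the H373R value against EV auxin was 0.35, with adjusted p = 0.0512 for Ebp. Its promoter stretch, at chrX:8193513-8193662 on the minus strand, is shown with the CCAAT box in reverse complement in capitals.
Ebp: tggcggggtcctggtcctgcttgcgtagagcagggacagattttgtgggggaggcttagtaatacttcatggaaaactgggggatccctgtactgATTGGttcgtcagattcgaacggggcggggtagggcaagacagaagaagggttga
Cyp51, the lanosterol demethylase, read 95.5, 105 and 106 CPM in EV untreated, 92.8 and 89.5 in EV auxin, 109, 115 and 116 in FL auxin and 108, 110.3 and 114 in H373R auxin. FL and H373R libraries were again all above the others, and EV auxin was the lowest group. Against EV auxin Cyp51 differed by 0.32 ± 0.059 (SE), adjusted p = 0.00132 in FL auxin and 0.28 ± 0.059 (SE), adjusted p = 0.00347 in H373R auxin, the latter with adjusted p = 0.0545 without EV auxin replicate 2. A share of 3.76% of its exon bases overlaps Akap9 on the opposite strand. Tm7sf2, a sterol reductase, read 7.26, 7.0 and 6.68 CPM in EV untreated, 6.50 and 5.44 in EV auxin, 8.45, 7.44 and 7.85 in FL auxin and 7.31, 7.74 and 8.42 in H373R auxin. Both groups with reintroduced CTCF lay above EV auxin without overlap, and EV auxin replicate 2 was the lowest library. The log2 fold change of Tm7sf2 was 0.43 ± 0.12 (SE), adjusted p = 0.0156 in FL auxin and 0.41 ± 0.11 (SE), adjusted p = 0.0193 in H373R auxin, but without EV auxin replicate 2 these were 0.30 and 0.27, with adjusted p = 0.212 and 0.266 for Tm7sf2. The FL call was also lost without FL auxin replicate 1 (0.0630) and the H373R call without H373R auxin replicate 3 (0.0783). Both Tm7sf2 calls were lost in limma without a TPM filter. Of the Tm7sf2 exon bases 12.1% are shared with Vps51 on the same strand, so its reads may be divided between the genes. Dhcr7, the last reductase of the pathway, was called against EV auxin at 0.15 (adjusted p = 0.0421) and 0.15 (adjusted p = 0.0461), and lost these calls under 11 and 13 of the 21 alternatives.

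**Figure D3:**
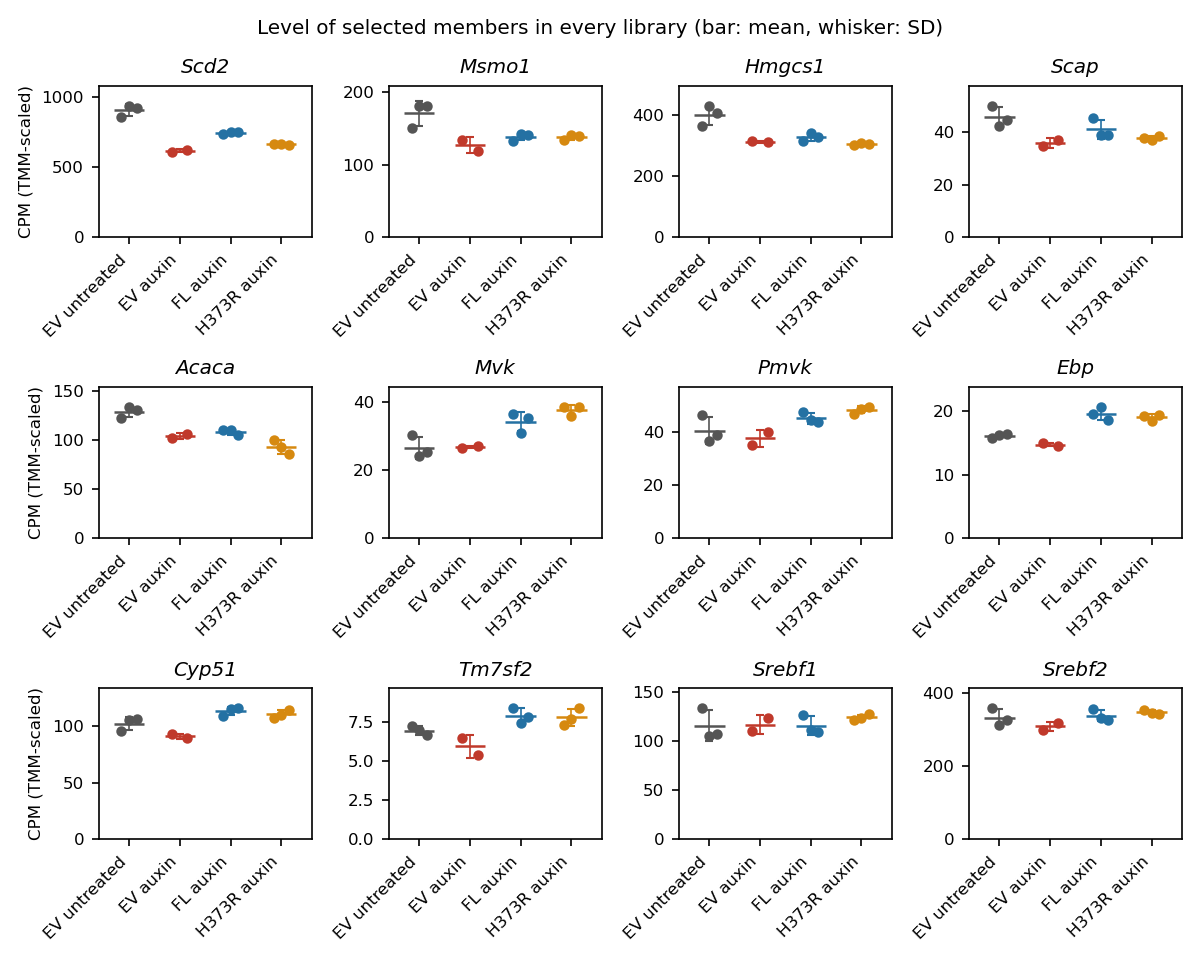
CPM, scaled by TMM, of 12 of the genes in each of the 11 libraries (points), with the group mean (horizontal bar) and SD (whisker). Scd2, Msmo1, Hmgcs1 and Acaca are highest in the 3 EV untreated libraries, while Mvk, Ebp and Cyp51 are highest in the FL auxin and H373R auxin libraries.

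Of the 5 regulators and transport genes, Scap and Stard4 (40%) fell after auxin, beside 20.7% of all tested genes called (9.40% lower). None of the 5 was called against EV auxin in FL auxin or H373R auxin, beside 24.5% and 21.7% of all tested genes. Srebf2, which encodes the SREBP that mainly drives cholesterol genes, read 359, 311 and 325 CPM in EV untreated, 299.7 and 317 in EV auxin, 356, 331 and 327 in FL auxin and 354, 344 and 343 in H373R auxin. FL and H373R libraries were above those of EV auxin and overlapped EV untreated. The difference of H373R auxin from EV auxin was 0.17 ± 0.062 (SE), adjusted p = 0.0618, and did not pass. After auxin its log2 fold change was -0.11 (95% interval -0.24 to 0.025). Srebf1, which encodes the SREBP that mainly drives fatty acid genes, read 134, 106 and 107 CPM in EV untreated, 109.8 and 124 in EV auxin, 127, 112 and 109 in FL auxin and 122, 123 and 127 in H373R auxin. Its libraries overlapped between EV untreated and every other group, EV untreated replicate 1 being the highest of all, and its change after auxin was 0.014 (-0.18 to 0.21). Insig1, which retains SCAP and is itself an SREBP target, read 120.1, 122 and 119 CPM in EV untreated, 119.6 and 113 in EV auxin, 125, 129 and 126 in FL auxin and 122, 123 and 127 in H373R auxin. Every FL and H373R library read just above the EV libraries. After auxin Insig1 had a log2 fold change of -0.050 (-0.15 to 0.053), and it was 0.12 (0.018 to 0.23) in FL auxin against EV auxin, with adjusted p = 0.517 and 0.0816. These are transcript levels, and cutting and nuclear entry of SREBP were not measured.

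Scap, the escort of the SREBP precursors, read 50.03, 42.4 and 44.6 CPM in EV untreated, 34.6 and 37.1 in EV auxin, 45.2, 39.0 and 38.8 in FL auxin and 37.9, 37.2 and 38.5 in H373R auxin. Both EV auxin libraries were below every other library, and FL auxin replicate 1 lay within the untreated range. The fall after auxin was -0.35 ± 0.083 (SE), adjusted p = 0.00675, and this Scap call was lost without EV auxin replicate 1 and in limma without a TPM filter. In H373R auxin Scap was below EV untreated (-0.27 ± 0.072 (SE), adjusted p = 0.00629), while FL auxin against EV untreated did not pass (-0.16, 95% interval -0.31 to 0.0012), and H373R auxin against FL auxin did not pass either (-0.12, -0.28 to 0.041). The core of the CTCF motif, searched as CCANNAGNNGGC on both strands, matched 2 of the 23 genes with a promoter window (8.7%), Scap and Elovl6, against 3.4% of tested genes with a window. The Scap stretch, at chr9:110333138-110333287 on the plus strand, ends at the base before the start, with the match in capitals.
Scap: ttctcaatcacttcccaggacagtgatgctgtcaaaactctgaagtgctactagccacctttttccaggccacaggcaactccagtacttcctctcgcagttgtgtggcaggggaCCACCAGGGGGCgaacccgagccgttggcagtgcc
CTCF binding at this stretch was not measured in these libraries. The G-quadruplex motif, in its usual form of 4 runs of at least 3 G with loops of 1 to 7 bases on either strand, matched 7 of the 23 genes with a window (30.4%), against 31.9% of tested genes with one. Stard4, which carries cholesterol between membranes, was -0.28 after auxin (adjusted p = 0.00577; 0.0659 without EV auxin replicate 2).

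Among the 7 fatty acid genes 4 (57.1%) fell after auxin: Scd2, Acaca, Fasn and Elovl6. Of all tested genes 20.7% were called (9.40% lower). Scd2 read 858, 939 and 923 CPM in EV untreated, 612 and 627 in EV auxin, 739.9, 753 and 749.7 in FL auxin and 669.6, 669 and 659 in H373R auxin. The 4 groups did not overlap, with EV untreated highest, then FL auxin, then H373R auxin, then EV auxin. The log2 fold change of Scd2 after auxin was -0.55 ± 0.049 (SE), adjusted p = 9.33e-07, and FL auxin was above EV auxin by 0.27 ± 0.048 (SE), adjusted p = 9.29e-04 and below EV untreated (-0.28 ± 0.043 (SE), adjusted p = 1.47e-04). These 3 calls held under all 21 alternatives. H373R auxin differed from EV auxin by 0.10 ± 0.048 (SE), adjusted p = 0.137, which did not pass. Scd1, its close paralog, had no call in any comparison and changed by -0.12 after auxin (95% interval -0.26 to 0.027), and reads that match both genes could be assigned to either or dropped, depending on counting settings that are not given in the sources used here.

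Acaca, acetyl-CoA carboxylase, which makes the malonyl-CoA that elongation uses, read 123, 134 and 130.4 CPM in EV untreated, 102 and 107 in EV auxin, 110.2, 111 and 105 in FL auxin and 100.4, 93.2 and 85.7 in H373R auxin. Every auxin library was below the untreated ones, and the H373R libraries were the lowest. Acaca changed by -0.30 ± 0.065 (SE), adjusted p = 0.00359 after auxin (adjusted p = 0.0543 without EV auxin replicate 1), by -0.25 ± 0.058 (SE), adjusted p = 0.00361 in FL auxin against EV untreated and by -0.47 ± 0.058 (SE), adjusted p = 1.13e-05 in H373R auxin against EV untreated. With GC and length trends removed the FL value of Acaca was -0.011, with adjusted p = 0.846, and the H373R value was -0.20, with the call kept. Fasn ranged from 796 to 913 CPM in EV untreated and from 687 to 743 in EV auxin, with a log2 fold change of -0.23 ± 0.076 (SE), adjusted p = 0.0387. The Fasn call after auxin was lost without EV auxin replicate 1 (0.290), EV auxin replicate 2 (0.0781) or H373R auxin replicate 2 (0.0509). Elovl6, an elongase of saturated chains, was -0.22 after auxin (adjusted p = 0.0339). The Elovl6 call was lost without either EV auxin library or EV untreated replicate 2 or 3, with only the libraries compared and in all 3 limma fits. Fads1, a desaturase of polyunsaturated chains, was not called after auxin (0.11, adjusted p = 0.162) but was higher than EV untreated in FL auxin (0.23 ± 0.047 (SE), adjusted p = 0.00128) and in H373R auxin (0.23 ± 0.047 (SE), adjusted p = 8.57e-04) under all 21 alternatives. Fads2, its neighbour in function, had no call.

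**Figure D4:**
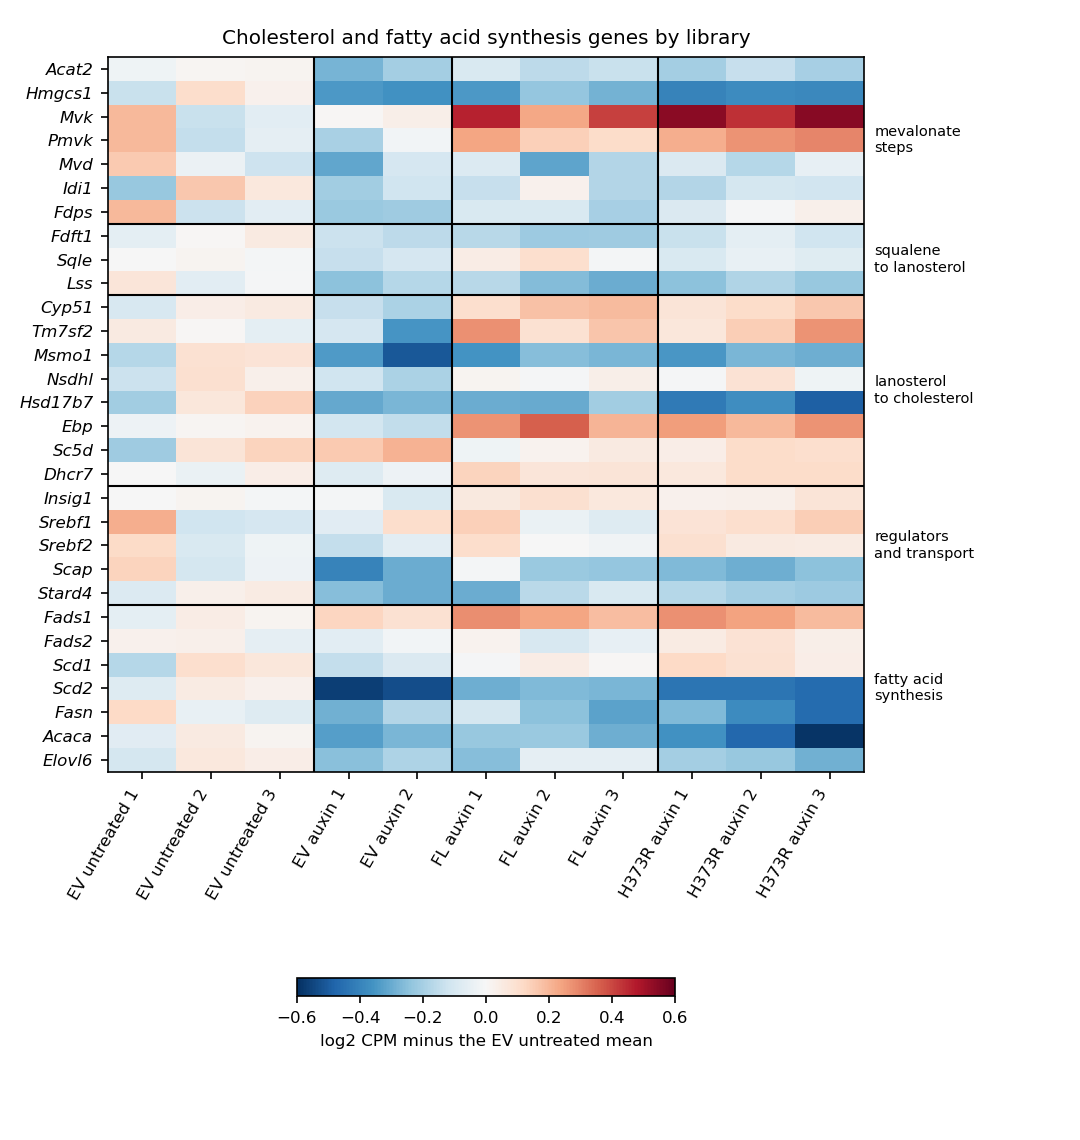
Log2 CPM minus the EV untreated mean (colour) of the 30 genes (rows, by role) in the 11 libraries (columns, by group). Scd2, Hmgcs1, Msmo1 and Hsd17b7 are below the untreated mean in all 8 auxin libraries, while Mvk, Ebp and Fads1 are above it in the 3 FL auxin and 3 H373R auxin libraries.

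The direct comparison of the mutant with FL CTCF called 2 of the 30 genes, Scd2 and Acaca, both lower in H373R auxin. That is 6.67% of the 30, beside 5.96% of all tested genes (3.14% higher, 2.82% lower). The log2 fold change was -0.17 ± 0.043 (SE), adjusted p = 0.0313 for Scd2, a difference of 10.9%, and -0.22 ± 0.059 (SE), adjusted p = 0.0353 for Acaca, a difference of 14.4%. The H373R and FL libraries did not overlap for either gene. Both calls were sensitive to single libraries: without any FL auxin library in turn neither gene passed, nor without H373R auxin replicate 2 or 3, and without H373R auxin replicate 1 or EV auxin replicate 1 only 1 did. The adjusted p of Scd2 reached 0.101 and that of Acaca 0.149 when a library was left out, and limma on TPM called neither. Without EV untreated replicate 1, 4 of the 30 were called, beside 14.2% of all genes. For genes called against EV auxin, the difference between mutant and FL had 95% intervals on the log2 scale of -0.045 to 0.31 for Mvk, -0.18 to 0.11 for Ebp, -0.15 to 0.075 for Cyp51, -0.073 to 0.27 for Pmvk and -0.23 to 0.19 for Tm7sf2, so differences within these bounds were not resolved.

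Other genes of the same biology were taken from 3 further lists. Among 12 genes of SREBP processing and sterol-regulated degradation, 3 (25%) were called after auxin, 1 higher and 2 lower, near the 20.7% of all tested genes. Ubxn8, an adaptor of endoplasmic reticulum degradation, rose (0.38 ± 0.089 (SE), adjusted p = 0.00588), with 14.7, 15.9 and 15.2 CPM in EV untreated and 20.2 and 19.6 in EV auxin. Fbxw7, the ubiquitin ligase subunit that removes nuclear SREBP, fell (-0.27 ± 0.070 (SE), adjusted p = 0.0125), with 49.0, 53.7 and 53.9 CPM in EV untreated and 42.6 and 44.0 in EV auxin. The calls of Ubxn8 and Fbxw7 were lost without either EV auxin library (adjusted p up to 0.0554 for Ubxn8 and 0.110 for Fbxw7), and that of Fbxw7 also in limma without a TPM filter.

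Of 17 genes of cholesterol uptake, storage and efflux, 2 (11.8%, beside 20.7% of all tested genes) were called after auxin, 1 in each direction. Abca1, the exporter that loads cholesterol onto apolipoproteins, read 18.5, 21.5 and 17.8 CPM in EV untreated, 12.8 and 14.7 in EV auxin, 18.7, 21.6 and 21.7 in FL auxin and 16.6, 16.4 and 15.8 in H373R auxin. It was lowest in EV auxin, and its FL libraries lay within or just above the untreated range. The log2 fold change of Abca1 was -0.47 ± 0.10 (SE), adjusted p = 0.00379 after auxin, 0.57 ± 0.10 (SE), adjusted p = 0.0011 in FL auxin against EV auxin and -0.34 ± 0.090 (SE), adjusted p = 0.0372 in H373R auxin against FL auxin. In that last comparison Abca1 was the 1 gene called of the 17, a share of 5.88% near the 5.96% of all tested genes. Npc1, which exports cholesterol from lysosomes, rose after auxin (0.26 ± 0.058 (SE), adjusted p = 0.00517). The Abca1 call after auxin was lost without EV auxin replicate 1 (0.0671) and that of Npc1 without EV auxin replicate 2 (0.105), and the call of Abca1 between H373R and FL was lost under 8 of the 21 alternatives (adjusted p up to 0.222), among them all 3 limma fits. Against EV auxin 7 of the 17 (41.2%, beside 24.5% of all tested genes) were called in FL auxin, 4 higher and 3 lower, and 4 (23.5%, beside 21.7%) in H373R auxin, 3 higher and 1 lower.

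Among 30 tested genes of other fatty acid and lipid synthesis steps, 13 (43.3%, beside 20.7% of all tested genes) were called after auxin, 7 higher and 6 lower, with a median of -0.013. Lpin1, a phosphatidate phosphatase that makes diacylglycerol, read 73.0, 74.7 and 77.2 CPM in EV untreated, 46.5 and 51.7 in EV auxin, 61.1, 60.3 and 61.4 in FL auxin and 69.8, 67.5 and 65.9 in H373R auxin. EV auxin was the lowest group and the 4 groups did not overlap. Lpin1 changed by -0.61 ± 0.060 (SE), adjusted p = 3.22e-06 after auxin and was above EV auxin by 0.31 (adjusted p = 0.00199) in FL auxin and 0.46 (adjusted p = 1.54e-04) in H373R auxin. Dgat2, which makes triglyceride from diacylglycerol, rose after auxin (0.44 ± 0.070 (SE), adjusted p = 3.48e-04), with 25.2, 22.7 and 23.3 CPM in EV untreated and 30.9 and 33.4 in EV auxin. Between H373R auxin and FL auxin 2 of the 30 were called, both higher in the mutant, a share of 6.67% near the 5.96% of all tested genes. Tecr, the reductase that completes chain elongation, differed by 0.29 ± 0.056 (SE), adjusted p = 0.00541, and Acacb, the mitochondrial acetyl-CoA carboxylase, by 0.32 ± 0.065 (SE), adjusted p = 0.00714. Acacb read 26.6, 26.6 and 26.7 CPM in FL auxin and 35.3, 33.2 and 31.7 in H373R auxin, and so lay on the other side of FL from its paralog Acaca. The calls given for Lpin1, Dgat2 and Tecr held under all 21 alternatives, and that of Acacb under 20, with adjusted p = 0.0519 without H373R auxin replicate 1.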

How the data were processed

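RNA was purified on columns, directional libraries were made and sequenced on an Illumina NovaSeq, per the labels' protocols. The authors deposited raw counts per gene symbol and TPM for the same 11 libraries. featureCounts, Subread 2.0.3 and DESeq2, and the builds mm10 and GRCm38, are named in the submitters' processing notes without their roles. The aligner, annotation and strand setting are not given in the sources used here. The deposited TPM carries the same reads as the counts: the length implied by their ratio was fixed per gene, to a relative difference of 9.33e-15. Total counts were 13465241 to 29902246 per library.

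Libraries were grouped by title. Counts were tested with edgeR 4.0.16 (R 4.3.3): TMM scaling, filterByExpr by group, 1 group-means model over all 11 libraries with the quasi-likelihood F test, and Benjamini-Hochberg adjustment over 16420 genes at 0.05. The common biological coefficient of variation was 0.0578. CPM values are TMM-scaled, and intervals are 95%. GC content, exon lengths and overlaps came from GENCODE M21 (GRCm38), and promoters from RefSeq. The scripts were tested on simulated counts.

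The members and the lists were chosen with earlier results of these data known. Values in every library are given for Srebf1, Srebf2, Scap, Insig1 and up to 4 called members with the largest absolute log2 fold change in each of EV auxin against EV untreated, FL and H373R auxin against EV auxin, and H373R against FL auxin; of the other lists, up to 2 called genes per list with the smallest adjusted p are named in the first and last of these. One item that this rule picks is not reported here. The alternatives were RLE scaling, DESeq2 1.42.0, no filter, a fit of only the groups in question, a block for the replicate number, removal of GC and length trends with and without that block, limma 3.58.1 on log2(TPM + 1) for genes at a TPM of 1 or more in 2 libraries, the same with 0.1 added in place of 1 and without that TPM minimum, and omission of each of the 11 libraries.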

Additional observations from a re-analysis of the deposited data

How the results depend on the processing

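No member called in the main analysis changed sign under any of the 10 alternatives or the 11 fits without 1 library, but the number called moved, most in the comparisons that use the 2 EV auxin libraries. Members called, with 11, 8, 6, 2, 14 and 15 in the main analysis for EV auxin against EV untreated, FL and H373R auxin against EV auxin, H373R against FL auxin, and FL and H373R auxin against EV untreated, moved by over 1.5 times as follows. With only the libraries compared, 7 members were called after auxin and 14 in H373R against EV auxin, while all genes called were 2016 after auxin, 5909 in H373R against EV auxin and 1815 in H373R against FL. With GC and length trends removed, members called were 21, 20, 13 and 4 in the first 4 comparisons, with 2220 of all genes in H373R against FL. With limma on log2(TPM + 1) or a pseudocount of 0.1 they were 7 after auxin, 4 in FL against EV auxin and 0 in H373R against FL, and without the TPM filter 6, 3, 3 and 0 in the first 4, with 2335 of all genes in H373R against EV auxin and 588 in H373R against FL. Beside that 0 of limma, 5 members had an unadjusted p under 0.05 (2 higher, 3 lower) and edgeR called 2. No share of all genes at the unadjusted threshold is given here.

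Leaving out each library in turn gave 4 to 17 members and 1569 to 5444 of all genes in EV auxin against EV untreated, 3 to 17 members and 1879 to 5800 of all genes in FL against EV auxin, 2 to 13 members and 1502 to 5397 of all genes in H373R against EV auxin, 0 to 4 members and 510 to 2323 of all genes in H373R against FL auxin, 10 to 16 members and 4776 to 7706 of all genes in FL against EV untreated and 14 to 19 members and 6012 to 8927 of all genes in H373R against EV untreated. Where edgeR called 0 in H373R against FL auxin, 2 to 5 members had an unadjusted p under 0.05, again without a share of all genes beside them. The cause of these shifts was not tested.

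Same-numbered libraries did not deviate together in every pair (r from -0.0870 to 0.282), so the numbers were not taken to pair the samples. Between FL auxin and EV untreated all same-numbered pairs were above 0 (0.282, 0.119 and 0.0957), with other pairs from -0.197 to 0.0710. Between H373R auxin and EV untreated the same-numbered values were 0.0060, 0.110 and -0.0870. With the replicate block, members called were 10, 6, 7, 2, 13 and 15, and with GC and length trends removed together with the replicate block 21, 20, 13 and 5 in the first 4 comparisons, with 2274 of all genes in H373R against FL. Among the low genes, Tm7sf2 had a median of 164 counts per library, and how far depth limits the calls of such genes was not tested.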
